A study of Mus musculus with 56 samples.

Results

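The minor Clostridiales families are the members of the bacterial order Clostridiales that carry a family name other than Clostridiaceae, Lachnospiraceae or Ruminococcaceae. They were found by the taxonomy column of a table of amplicon sequence variants (ASVs, exact 16S rRNA gene sequences told apart after error correction), and the rule itself reads no count. Of 938 ASVs, 28 met this rule. They fell into 6 families, namely Christensenellaceae with 9 ASVs, Dehalobacteriaceae with 5, Eubacteriaceae with 1, Peptococcaceae with 2, Peptostreptococcaceae with 1 and [Mogibacteriaceae] with 10. The order also held 27 ASVs of Clostridiaceae, 204 of Lachnospiraceae, 164 of Ruminococcaceae and 188 without a family name.

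The 16S rRNA gene was sequenced in the contents of the large intestine (LI) and the small intestine (SI) of 28 male mice. Mice lacking the melanocortin 4 receptor (MC4R KO), a receptor of the brain that restrains feeding, were fed a Western diet (KO-WD, n = 8) or a normal diet (KO-ND, n = 8). Male C57BL/6J wild-type mice received the same diets (WT-WD, n = 6, and WT-ND, n = 6). All mice first ate a standard chow and then the normal diet, in the same room. From 10 weeks of age they ate the assigned diet for 12 weeks, and they were housed singly. The groups were set up to separate the part of genotype from that of diet in a mouse model of fatty liver disease. The WT mice were bought from a breeder while the KO mice came from a separately generated line, so genotype and the source of the mice cannot be told apart in any comparison of KO with WT mice.

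Clostridiales are mostly strict anaerobes of the Firmicutes, and in the mammalian gut the bulk of the order lies in Lachnospiraceae and Ruminococcaceae, which ferment plant polysaccharides and mucus to short-chain fatty acids. The families described here are the sparse remainder. Peptococcaceae are strict anaerobes that include sulfate reducers of sediments, and rc4-4 is a placeholder that the Greengenes taxonomy gives to an uncultured genus of this family found in the rodent gut. Christensenellaceae are fermenters that in humans are among the most heritable gut bacteria and are more abundant in lean people. Mogibacteriaceae, written in brackets by Greengenes because the name is a proposal, are anaerobes that use few or no sugars. *Dehalobacterium* was isolated as a bacterium that grows on dichloromethane, *Anaerofustis* was cultured from human faeces, and Peptostreptococcaceae hold *Clostridioides difficile*.

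Library totals were 22550 to 35236 counts (median 29721) over the 56 libraries. A taxon with no count in a group was therefore limited, at 3 counts in the pooled total, to a share of at most 0.00129% in the LI of KO-WD mice and 0.00126% in the LI of KO-ND mice. These limits cover counting error only. Single reads are absent from the deposited counts, so a true share could lie above these limits. Most members lay close to that depth: of their 153 non-zero values over all ASVs and libraries, 104 were under 20 counts (67.97%), and the median was 11. Counts give shares of the sequenced 16S rRNA genes, so a change of a share is relative to the other taxa, and the median change over all genera is given beside the main comparisons.

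Members made up 9207 counts in the LI and 342 in the SI. In the LI their summed share was 0.237% ± 0.195 in KO-WD, 0.212% ± 0.197 in KO-ND (SD, n = 8 each), 3.44% ± 1.57 in WT-WD and 0.841% ± 0.447 in WT-ND mice (SD, n = 6 each). A single ASV, that of rc4-4, held 79.7% of the LI counts. Without it the summed share was 0.237% ± 0.195 in KO-WD, 0.212% ± 0.197 in KO-ND, 0.262% ± 0.0872 in WT-WD and 0.171% ± 0.144 in WT-ND mice, and the ranges of all 4 groups overlapped. Members were 0.815% ± 0.719 of all Clostridiales counts in the LI of KO-WD mice and 0.921% ± 0.605 in KO-ND mice (SD, n = 8 each), against 10.6% ± 6.77 in WT-WD and 3.55% ± 0.908 in WT-ND mice (SD, n = 6 each).

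rc4-4 was counted in the LI of no KO mouse and of every WT mouse. It had 0 counts in all 8 KO-WD and all 8 KO-ND libraries. In WT-WD mice its share of the library was 2.69%, 1.18%, 5.45%, 4.49%, 3.40% and 1.88% (replicates 1 to 6), from 380 to 1774 counts. In WT-ND mice it was 0.721%, 0.137%, 0.448%, 0.830%, 1.30% and 0.583%, from 43 to 385 counts. None of 16 KO libraries thus held a count, while the lowest WT library held 43. By mean share rc4-4 ranked 10 of the 41 genera with counts in the LI of WT-WD mice and 15 of 44 in WT-ND mice.

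**Figure D1:**
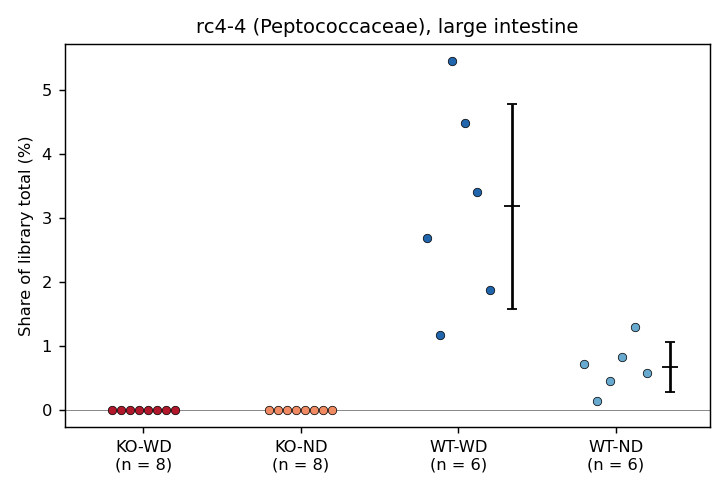
Share of rc4-4 in the library total (%, y axis) in the LI of each mouse, by group (x axis), with 1 point per library and the mean ± SD beside the points of the WT groups. All 16 KO libraries lie at 0, the 6 WT-WD libraries between 1.18% and 5.45%, and the 6 WT-ND libraries between 0.137% and 1.30%.

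Changes were tested with edgeR's quasi-likelihood test on the counts. The genera tested averaged 0.01% or more over the pooled libraries of the 2 groups and were counted in 4 or more of them. Adjusted p is by Benjamini-Hochberg over those genera, with 0.05 as the threshold. rc4-4 was lower in KO-WD than in WT-ND mice, with means of 0 and 0.670% ± 0.392, at least 518-fold (adjusted p = 0.000116). It was lower in KO-ND than in WT-ND mice, at least 532-fold (adjusted p = 1.41e-05). On the Western diet it was lower in KO-WD than in WT-WD mice, with means of 0 and 3.18% ± 1.60, at least 2457-fold (adjusted p = 2.91e-05). Each of these folds sets the KO group at 3 pooled counts and is a lower bound for counting error only. Since single reads are absent from the deposited counts, the true fold could be smaller. The median log2 fold change over all genera was 0.52 in KO-WD against WT-ND, 0.54 in KO-ND against WT-ND and -0.64 in KO-WD against WT-WD mice, while rc4-4 stood at -9.02 or lower, -9.06 or lower and -11.26 or lower in the same comparisons. The first and second of these comparisons share the WT-ND mice.

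Among all genera of the LI such a full split was uncommon. Near splits by presence also occurred: AF12 and [Prevotella] were counted in 15 of 16 KO and 0 of 12 WT libraries. The unnamed Bacteroidales were counted in 15 of 16 KO and 1 of 12 WT libraries. Of 44 genera, 2 had shares that did not overlap between the 16 KO and 12 WT libraries (4.55%), rc4-4 and an unnamed genus of Desulfovibrionaceae, a sulfate-reducing family, which was found only in KO mice. Of all 938 ASVs, 3 had no count in any KO library of the LI and a count in each of the 12 WT libraries. They were the rc4-4 ASV (ASV_024), a Rikenellaceae ASV (ASV_051) and a Lachnospiraceae ASV (ASV_075). In the opposite direction, 2 ASVs had a count in all 16 KO and in no WT library, and neither was a member.

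Within WT mice, rc4-4 averaged 3.18% ± 1.60 on the Western diet and 0.670% ± 0.392 on the normal diet (SD, n = 6 each), 4.75-fold apart. In 5 of 6 WT-WD mice its share was above that of every WT-ND mouse, and replicate 2 of WT-WD (1.18%) fell under the highest WT-ND mouse (1.30%). At the genus rank this difference did not pass the test (log2 fold change 2.25, SE 0.64, edgeR adjusted p = 0.0733). Without that WT-WD replicate 2 it did pass (adjusted p = 0.0480), and it passed with DESeq2 (log2 fold change 1.93, adjusted p = 0.00895) but in none of the other 6 alternatives. The median log2 fold change over all 37 genera tested was 1.11 in the same comparison, so rc4-4 stood 1.14 above the median genus.

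The family Peptococcaceae, which is rc4-4 and 1 further ASV, did pass in WT-WD against WT-ND mice (log2 fold change 2.19, SE 0.59, edgeR adjusted p = 0.0310, 22 families tested, 9.09% of them called). Its mean share was 3.19% ± 1.60 in WT-WD and 0.700% ± 0.407 in WT-ND mice (SD, n = 6 each). The family call was lost when WT-WD replicate 3 or 5, or WT-ND replicate 1, 3, 4 or 6, was left out (adjusted p = 0.0529 to 0.0970), with the log2 fold change then between 1.97 and 2.25. It was also lost with TMM scaling (log2 fold change 1.90, adjusted p = 0.101), and of 7 alternatives in all it was kept in 3 (adjusted p = 0.00484 to 0.275 over the 7).

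The other Peptococcaceae ASV, ASV_347, has no genus name and showed another pattern. In the LI it was found in none of 8 KO-WD mice, in 4 of 8 KO-ND mice (10, 8, 2 and 7 counts) and in 2 of 6 WT-WD mice (11 and 3 counts). It was found in all 6 WT-ND mice, at 4, 6, 9, 7, 20 and 7 counts. Its mean share was 0 in KO-WD and 0.0295% ± 0.0194 in WT-ND mice (edgeR adjusted p = 0.000528). With KO-WD set at 3 pooled counts, it was at least 22.8-fold lower there. All its counts in this comparison were in WT-ND mice, so only a lower call was possible. KO-ND and WT-WD mice lay between, at 0.0113% ± 0.0140 (SD, n = 8) and 0.00718% ± 0.0136 (SD, n = 6), and neither differed from WT-ND mice past the threshold with edgeR (adjusted p = 0.458 for KO-ND and 0.355 for WT-WD). Both passed with DESeq2 (log2 fold change -1.88, adjusted p = 0.0438, for KO-ND and -2.98, adjusted p = 0.0302, for WT-WD) and with limma (adjusted p = 0.0153 and 0.0261), and in none of the other 5 alternatives. These are small counts: when WT-ND replicate 5 was left out, the genus fell under the share required for a test.

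The averages of rc4-4 and this second ASV lay on opposite sides between the diets of WT mice, a difference that was not tested. rc4-4 averaged higher in WT-WD than in WT-ND mice and ASV_347 lower (log2 fold changes 2.25 ± 0.64 and -1.98 ± 1.29, SE), while in KO-WD mice both stood at 0. In KO-ND mice rc4-4 was at 0 and ASV_347 was still counted in 4 of 8 mice.

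Members that passed the test are few and are set here against all genera. In KO-WD against WT-ND mice 2 of 5 member genera tested in the LI were lower and 0 higher, where 10.3% of all 39 genera were lower and 25.6% passed in either direction. In KO-ND against WT-ND mice 1 of 5 was lower (12.2% of 41 genera lower, 29.3% in either direction), and in KO-WD against WT-WD mice 1 of 4 (14.6% of 41 genera lower, 34.1% in either direction). All of these member calls were of genera without a count in the KO group, so a higher call was not possible for them. In WT-WD against WT-ND mice 1 of 5 member genera passed, the single call among 37 genera (2.7%), and in KO-WD against KO-ND mice 0 of 3 did, as did 0 of all 39 genera (0%) in edgeR. Without adjustment 3 of those 39 genera, none of them a member, had p under 0.05 in edgeR, and limma on centred log ratios called 1. The median log2 fold change over the member genera tested was 0.84 in KO-WD and 0.54 in KO-ND against WT-ND mice, against 0.52 and 0.54 over all genera.

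The larger families of the order gave few calls of their own in the LI. In KO-WD against WT-ND mice 0 of 3 genera of Clostridiaceae, 0 of 5 of Lachnospiraceae and 0 of 4 of Ruminococcaceae passed, and the Clostridiales without a family name did not pass either. In KO-ND against WT-ND mice 1 of 4 Ruminococcaceae genera was lower. In KO-WD against WT-WD mice 2 of 4 Ruminococcaceae genera were lower and none of the 5 Lachnospiraceae genera passed.

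**Figure D2:**
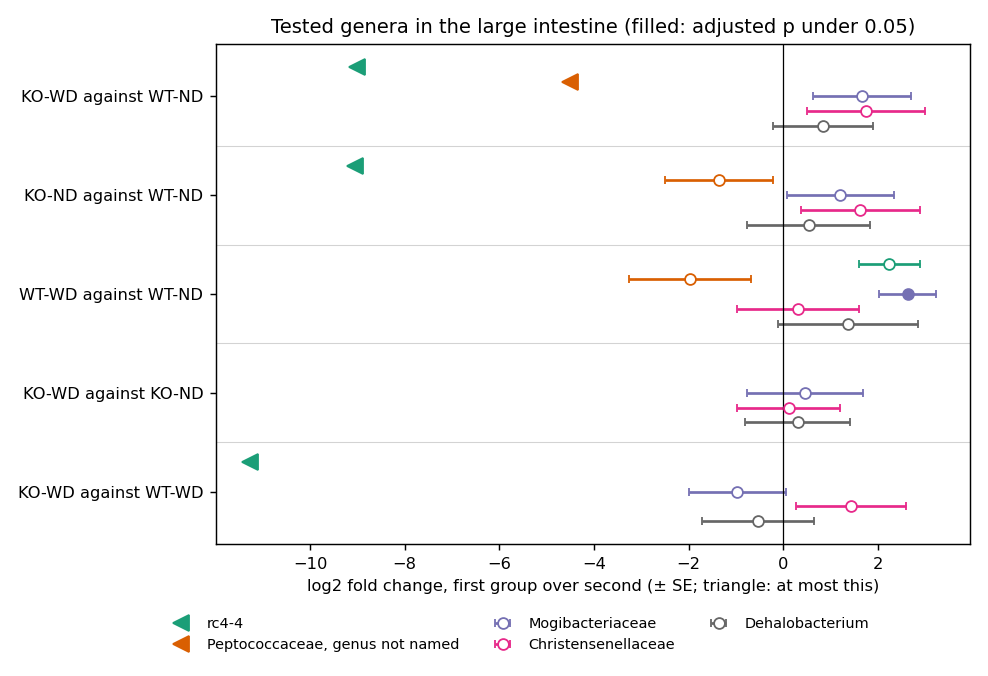
log2 fold change of each tested genus of the minor families in the LI (x axis, first group over second, ± SE) for 5 comparisons (rows), filled where adjusted p was under 0.05. Triangles mark upper limits where the first group had no counts. rc4-4 is at -9.02 or lower against WT-ND and at -11.26 or lower against WT-WD mice, while Christensenellaceae and *Dehalobacterium* have open symbols throughout.

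Mogibacteriaceae were the single genus-level group that edgeR called higher on the Western diet in WT mice. Their LI share was 0.240%, 0.0528%, 0.218%, 0.146%, 0.132% and 0.0648% in WT-WD mice (17 to 78 counts) and 0.0367%, 0.0255%, 0.0189%, 0.0110%, 0.0237% and 0.0195% in WT-ND mice (3 to 11 counts). Each WT-WD library thus lay above each WT-ND library, the single genus of 37 with no overlap in this comparison (2.7%). The means were 0.142% ± 0.0767 and 0.0226% ± 0.00855 (SD, n = 6 each), with a log2 fold change of 2.64 (SE 0.60, edgeR adjusted p = 0.0293). Against the median genus of this comparison, which was 1.11, the excess was 1.53.

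That call was not stable to the loss of 1 mouse. It was lost when WT-WD replicate 3 or 5 or WT-ND replicate 1, 2, 3, 5 or 6 was left out, with adjusted p from 0.0524 to 0.0879, and the log2 fold change then stayed between 2.47 and 2.82. It was also lost with TMM scaling (log2 fold change 2.00, adjusted p = 0.142), and of 7 alternatives it was kept in 2, DESeq2 and limma (adjusted p = 0.00895 to 0.224 over the 7).

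In KO mice the Mogibacteriaceae of both diets overlapped. Their lowest, median and highest LI shares were 0%, 0.0720% and 0.203% in KO-WD mice and 0%, 0.0583% and 0.114% in KO-ND mice, and 2 of 8 KO-WD and 3 of 8 KO-ND libraries had none. The difference did not pass the test (log2 fold change 0.46, SE 1.23, edgeR adjusted p = 0.955). The difference between the diet effects in KO and WT mice, tested as an interaction, did not pass (log2 difference -2.17, SE 1.55, adjusted p = 0.787), so it is not shown that the genotypes responded differently. Across 44 genera the interaction passed for 0 in edgeR (0%), with 2 at an unadjusted p under 0.05, and for 0 in DESeq2 and limma. For rc4-4 no interaction could be estimated, since both KO groups are at 0.

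The Mogibacteriaceae were made up of several ASVs in WT mice. In WT-WD mice 275 counts fell on 5 ASVs, and ASV_183 alone held 58.2% of them. In WT-ND mice 41 counts were spread over 7 ASVs, each found in 1 mouse and none with more than 11 counts. The diets shared 3 ASVs (ASV_344, ASV_479 and ASV_644), which are 60% of those in WT-WD and 42.9% of those in WT-ND mice, and no difference in make-up was tested. ASV_183, the most counted of the family, was found in 6 of 8 KO-WD mice (135 counts), 5 of 8 KO-ND mice (75 counts), 4 of 6 WT-WD mice (160 counts) and 0 of 6 WT-ND mice. The next 2 ASVs by counts were ASV_344, in the LI of 1 WT-WD and 1 WT-ND mouse (39 and 3 counts) and of no KO mouse, and ASV_377, in 2 KO-WD, 1 KO-ND and 3 WT-WD mice (15, 6 and 37 counts).

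**Figure D3:**
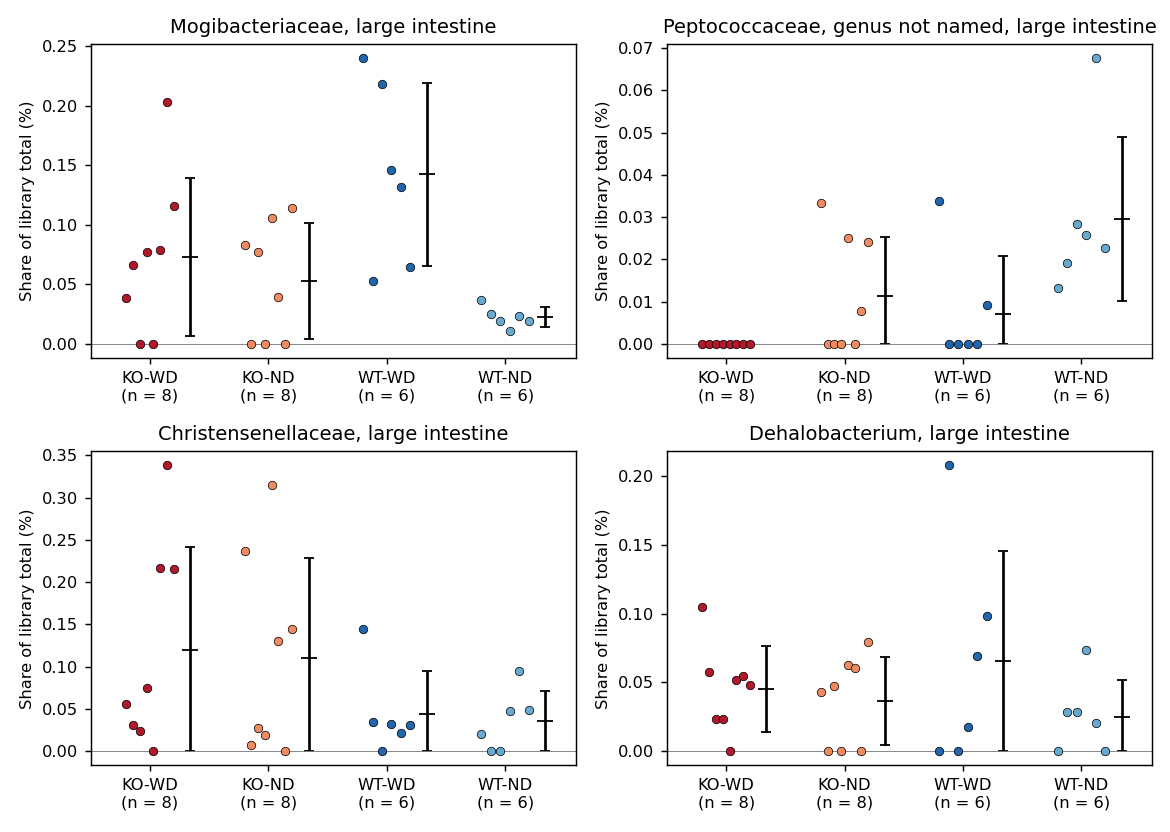
Share of the library total (%, y axis; scales differ between panels) of Mogibacteriaceae, the Peptococcaceae without a genus name, Christensenellaceae and *Dehalobacterium* in the LI of each mouse, by group (x axis), with 1 point per library and the mean ± SD beside it (lower bars end at 0). WT-WD Mogibacteriaceae (0.0528% to 0.240%) lie above all WT-ND mice (up to 0.0367%), the unnamed Peptococcaceae are at 0 in all KO-WD mice, and the groups overlap in the lower panels.

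Christensenellaceae were found in the LI of 7 of 8 KO-WD, 7 of 8 KO-ND, 5 of 6 WT-WD and 4 of 6 WT-ND mice. Their lowest, median and highest shares were 0%, 0.0650% and 0.338% in KO-WD, 0%, 0.0784% and 0.315% in KO-ND, 0%, 0.0315% and 0.145% in WT-WD, and 0%, 0.0339% and 0.0947% in WT-ND mice. The highest shares were in KO mice, but every group also held a mouse with none. Means were 0.119% ± 0.122 in KO-WD, 0.110% ± 0.118 in KO-ND (SD, n = 8 each), 0.0438% ± 0.0510 in WT-WD and 0.0352% ± 0.0363 in WT-ND mice (SD, n = 6 each). No pair passed: the log2 fold change was 1.75 (SE 1.25, edgeR adjusted p = 0.323) for KO-WD and 1.63 (SE 1.26, adjusted p = 0.407) for KO-ND against WT-ND mice, and 1.44 (SE 1.17, adjusted p = 0.375) for KO-WD against WT-WD mice.

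At the ASV rank, part of the Christensenellaceae was counted in KO mice alone. ASV_226 was found in 9 of 16 KO and 0 of 12 WT libraries of the LI, with 7 to 81 counts where present, and held 47.2% of the family's counts in KO-WD and 70.3% in KO-ND mice. ASV_380 was found in 7 of 16 KO and 0 of 12 WT libraries. Of the 16 KO libraries 4 held both, 5 ASV_226 only, 3 ASV_380 only and 4 neither. ASV_265 was found in 8 of 16 KO and 7 of 12 WT libraries and held 65.9% of the family's counts in WT-WD and 45.2% in WT-ND mice.

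Presence in 1 genotype was frequent among all ASVs. Of the 307 ASVs with a count in at least 4 LI libraries, 30% were found only in KO and 14.7% only in WT mice. Of the 12 member ASVs at that limit, 2 were found only in KO mice (ASV_226 and ASV_380) and 2 only in WT mice (rc4-4 and ASV_479 of Mogibacteriaceae, the last in 4 of 12 libraries). Among ASVs outside Clostridiales at that limit, 58.7% were found only in KO and 20.2% only in WT mice, against 17.3% and 13.6% in Lachnospiraceae and 8.20% and 9.84% in Ruminococcaceae.

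**Figure D4:**
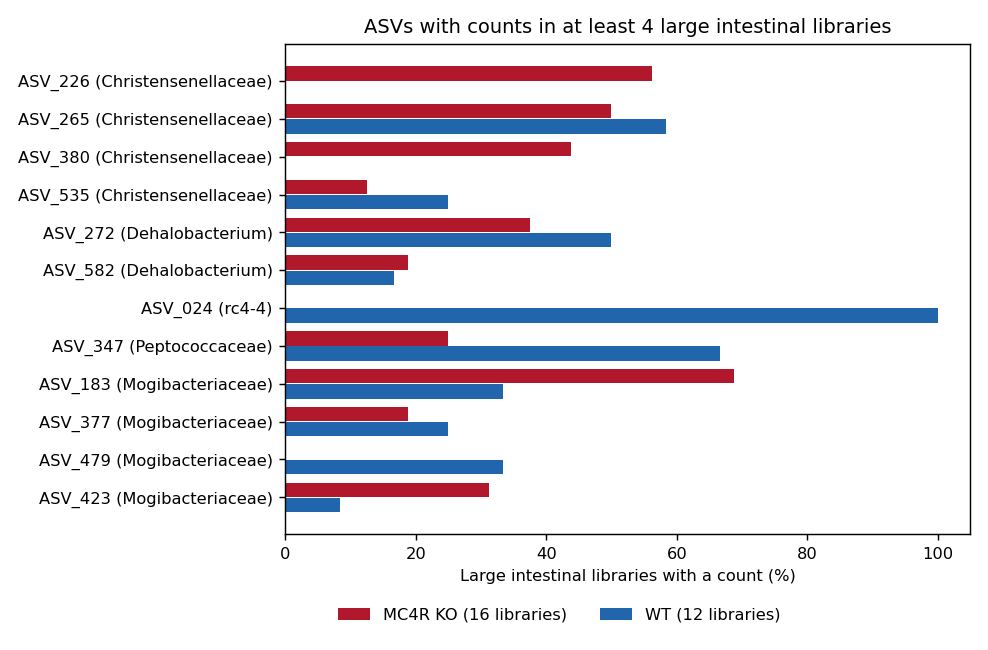
Percentage of LI libraries with a count (x axis) in MC4R KO (16 libraries, upper bar) and WT mice (12 libraries, lower bar) for the 12 ASVs of the minor families with counts in at least 4 LI libraries (rows). ASV_024, which is rc4-4, reaches 100% in WT and 0% in KO mice, and ASV_226 and ASV_380 reach 56.2% and 43.8% in KO and 0% in WT mice.

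*Dehalobacterium* was counted in the LI alone. Its lowest, median and highest shares were 0%, 0.0497% and 0.105% in KO-WD, 0%, 0.0453% and 0.0794% in KO-ND, 0%, 0.0436% and 0.208% in WT-WD, and 0%, 0.0243% and 0.0734% in WT-ND mice. The groups overlapped throughout and no pair passed (edgeR adjusted p = 0.551 to 0.985). ASV_272 held 73.6% of its counts and was found in 6 of 16 KO and 6 of 12 WT libraries, while ASV_339 (3 KO libraries) and ASV_582 (3 KO and 2 WT libraries) held 8.89% and 8.06%.

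Among KO mice, Christensenellaceae and Mogibacteriaceae varied together. Over the 16 KO libraries of the LI, Pearson's r was 0.833 (permutation p = 5e-05, adjusted p = 0.0012 over 24 relations computed) and Spearman's rho 0.905 (permutation p = 1e-05, the smallest that 100000 draws can give, adjusted p = 0.00024). Leaving out the 2 libraries farthest from the median of Christensenellaceae, r was 0.749. Within KO-WD mice r was 0.911 (n = 8, exact permutation p = 0.000843, adjusted p = 0.0101) and within KO-ND mice 0.760 (n = 8, exact permutation p = 0.0342, adjusted p = 0.117). By Spearman's rho both groups passed, with 0.946 in KO-WD (exact permutation p = 0.00129, adjusted p = 0.0155) and 0.878 in KO-ND mice (exact permutation p = 0.00833, adjusted p = 0.0333). In WT mice the same pair gave r of 0.438 within WT-WD (n = 6, exact permutation p = 0.514) and -0.201 within WT-ND mice (n = 6, exact permutation p = 0.731). Both shares have the total of the same library as divisor, and the difference between the genotypes was not tested. The KO libraries also differed in ASVs of any kind, from 75 (KO-WD replicate 5) to 178 (KO-ND replicate 5). The others without Mogibacteriaceae held 124 (KO-WD replicate 3) and 113, 93 and 90 (KO-ND replicates 2, 4 and 7). The part of this in the relation was not tested.

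*Dehalobacterium* varied with the Mogibacteriaceae past the threshold in 1 of the 4 groups by Pearson's r. That was KO-ND (r = 0.904, n = 8, exact permutation p = 0.00595, adjusted p = 0.0476), while r was 0.276 in KO-WD (n = 8, exact permutation p = 0.498), -0.874 in WT-WD (n = 6, exact permutation p = 0.00833, adjusted p = 0.05) and -0.731 in WT-ND mice (n = 6, exact permutation p = 0.117). By Spearman's rho the WT-WD relation passed as well (rho = -0.986, exact permutation p = 0.00556, adjusted p = 0.0333), as did the KO-ND one (rho = 0.900, exact permutation p = 0.00714, adjusted p = 0.0333). Over all 16 KO libraries r was 0.552 (permutation p = 0.0264, adjusted p = 0.106). The libraries of KO-ND replicates 2, 4 and 7 held neither. Christensenellaceae and *Dehalobacterium* passed over the 16 KO libraries by Spearman's rho (0.667, permutation p = 0.00593, adjusted p = 0.0333). By Pearson's r they did not (0.467, permutation p = 0.0677, adjusted p = 0.163), and they passed in none of the 4 groups taken alone. The share of all Clostridiales ranged from 2.23% to 36.9% in KO-ND mice, and its part in these relations was not tested.

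Over all 28 LI libraries the genus outside the minor families most like Christensenellaceae was the unnamed Bacteroidales (Spearman's rho 0.563), followed by [Prevotella] (0.518) and an unnamed genus of F16 (0.514). The most like *Dehalobacterium* were the Clostridiales without a family name (0.512), *Parabacteroides* (0.458) and *Dorea* (0.454). For Mogibacteriaceae they were *Parabacteroides* (0.571), *Akkermansia*, a mucus degrader (0.507), and the unnamed Rikenellaceae (0.400). Each was picked as the highest of 51 genera, the libraries pool 4 groups, and the values are a description.

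*Anaerofustis* and Peptostreptococcaceae were found in few mice. *Anaerofustis*, a single ASV, had 3 counts in the LI of 1 KO-ND mouse and 5 counts in that of 1 WT-WD and 1 WT-ND mouse. It was the single member genus with fewer counts in the LI (13) than in the SI (75), with 29, 15 and 15 counts in 3 WT-WD mice and 16 in 1 WT-ND mouse. In the SI it did not differ between WT-WD and WT-ND mice past the threshold (log2 fold change 1.76, SE 1.90, edgeR adjusted p = 0.501). None of 30 genera was called there by edgeR (0%, with 3 at an unadjusted p under 0.05), 1 by DESeq2 and 3 by limma, and no member by any of them. Peptostreptococcaceae were 103 counts of 1 ASV in the LI of WT-ND replicate 6, a share of 0.335%, and had none in any other library.

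The small intestine held few members. They were counted in 27 of 28 LI libraries, all but KO-WD replicate 5, and in 9 of 28 SI libraries. The SI libraries with a member were 0 of 8 KO-WD, 2 of 8 KO-ND, 4 of 6 WT-WD and 3 of 6 WT-ND mice. ASVs of any kind in the SI also differed, at 16 to 45 per library in KO-WD and 15 to 104 in KO-ND mice. WT-WD mice had 41 to 97 and WT-ND mice 28 to 65. Median SI totals were 25163 counts in KO-WD and 31296.5 in WT-WD mice. rc4-4 appeared in 1 of them, WT-WD replicate 1, at 22 counts (0.0708%) beside 874 in the LI of the same number. Of 17 pairs of an ASV and an SI library with a count, 10 also had a count of that ASV in the LI library of the same number.

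Mogibacteriaceae were the most counted in the SI. They had 98, 44, 2, 0, 0 and 17 counts in WT-WD mice, 8 and 9 counts in 2 of 6 WT-ND mice, and none in 8 KO-WD and 8 KO-ND mice. With KO-WD set at 3 pooled counts, they were at least 59.0-fold lower in KO-WD than in WT-WD mice. The means were 0 and 0.0856% ± 0.124 (edgeR adjusted p = 0.00211). All counts in this comparison were in WT-WD mice, so only a lower call was possible. In that comparison 51.7% of all 29 genera were lower and 58.6% passed in either direction, and the median log2 fold change over all of them was -3.67. The call rests on 4 WT-WD libraries: without replicate 1, 2, 3 or 6 of WT-WD fewer than 4 libraries held a count and the genus was not tested. Without replicate 1, which held 0.315%, the WT-WD mean was 0.0397% and the bound at least 27.4-fold. WT-WD mice did not differ from WT-ND mice past the threshold (log2 fold change 3.14, SE 1.87, adjusted p = 0.371).

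Christensenellaceae were counted in the SI of 2 KO-ND mice (4 and 37 counts) and 1 WT-WD mouse (17 counts), and ASV_347 in that of 1 WT-ND mouse (9 counts). With the mouse as a block, all 4 member genera that could be tested were higher in the LI than in the SI, where 60% of 45 genera were higher and 80% passed in either direction. The log2 fold changes were 9.13 for rc4-4 (SE 0.91, edgeR adjusted p = 5.13e-10), 6.24 for *Dehalobacterium* (SE 0.93, adjusted p = 7.07e-06), 5.72 for Christensenellaceae (SE 0.71, adjusted p = 3.36e-09) and 4.90 for Mogibacteriaceae (SE 0.84, adjusted p = 2.00e-06). *Dehalobacterium* had no count in any of the 28 SI libraries, so only a higher call was possible for it. Its log2 fold change is a fitted value and not a measured fold. The median over all genera was 2.54. Only mice with a count in at least 1 site bear on each value, which for rc4-4 are the 12 WT mice. With DESeq2's poscounts scaling the rc4-4 difference was lost (log2 fold change 0.88, adjusted p = 0.839), as was that of *Dehalobacterium* (adjusted p = 0.191).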

How the data were processed

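The authors sequenced the 16S rRNA gene in LI and SI contents, and per the labels and methods kept reads that matched the primers (FASTX-Toolkit 0.0.14), trimmed for quality (Sickle 1.33), joined read pairs (FLASH 1.2.11), denoised them with DADA2 under QIIME 2 2021.4, and named taxa by Greengenes 13_8. The deposited values are raw counts per ASV and library, not normalized; the lowest non-zero value is 2, so single reads are absent from the table. Totals of 22550 to 35236 set the depth.

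ASV counts were summed by genus and family and divided by the library total. Tests used edgeR 4.0.16 (quasi-likelihood, library totals as scaling) in R 4.3.3, in a fit of the 2 groups of 1 site. A standard error is the log2 fold change over the square root of the F statistic. Taxa needed a mean share of 0.01% and a count in 4 libraries. Group by group, each of the other 3 groups was set against WT-ND, and KO-WD also against KO-ND and against WT-WD, beside the genotype by diet interaction, and LI against SI with the mouse (group and sample number) as a block. LI and SI libraries of 1 number had a mean Bray-Curtis similarity of 0.585, against 0.473 for other numbers of the group, and 12 of 28 SI libraries were most like the LI library of their own number. The fit was tested on simulated data.

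Values by library are given for each genus that passed a test or had a mean share of 0.01% in the LI or SI, with its 3 most counted ASVs and, where 14 LI libraries held it, the 3 most similar other genera. The member rule uses taxonomy alone, but this set of families and the lists were chosen for description with earlier results of these data known. Alternatives were TMM, DESeq2 1.42.0, limma 3.58.1 on centred log ratios (0.5 added), no filter, an exact rank-sum test, all 4 groups in 1 fit, a block for the replicate number, and fits that each left out 1 library. Fits across the sites left out 1 mouse instead. Correlations and sums without rc4-4 were chosen after the values were seen. Other steps used scipy 1.17.1, numpy 2.4.6 and pandas 2.3.3 under Python 3.11.15, and matplotlib 3.10.9. No sequence of an ASV is shown.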

Additional observations from a re-analysis of the deposited data

Results flagged for a closer look

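In 29 sets of libraries (a member genus with a count, in 1 group and site), the gap of the highest or the lowest library to its neighbour was set against Dixon's 95% limit for a group of that size. Chance exceeds that limit in about 1 in 20 sets of normally distributed values, a rate that does not hold for shares with many zeros. In 12 sets 1 library stood apart, and in 8 of them it was the only library with a count, which passes the limit by construction. The cause was not tested in any.

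For Christensenellaceae the libraries were KO-ND SI replicate 5 (0.109%), WT-WD SI replicate 1 (0.0547%) and WT-WD LI replicate 1 (0.145%). For *Anaerofustis* they were KO-ND LI replicate 8 (0.0104%), WT-WD LI replicate 2 (0.0155%), WT-ND LI replicate 6 (0.0163%) and WT-ND SI replicate 2 (0.0532%). For the Peptococcaceae without a genus name they were WT-WD LI replicate 1 (0.0338%), WT-ND LI replicate 5 (0.0676%) and WT-ND SI replicate 2 (0.0299%). For rc4-4 it was WT-WD SI replicate 1 (0.0708%), and for Peptostreptococcaceae WT-ND LI replicate 6 (0.335%). WT-WD replicate 1 stood apart in 4 of the 12 sets.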

How the results depend on the processing

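The zero counts of rc4-4 in KO mice are deposited values and depend on no setting of the tests. They do rest on the authors' read filtering, denoising and naming of taxa, which were not varied. The rc4-4 calls of KO against WT mice in the LI were kept in all fits that left out 1 library. They were also kept in all other alternatives but the replicate number as a block, where only KO-ND against WT-ND kept its call.

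Numbers of member genera past the threshold in the LI changed as follows. KO-ND against WT-ND mice gave 2 with DESeq2 and 2 with limma, against 1. WT-WD against WT-ND mice gave 3 with DESeq2 and 2 with limma, and 0 with TMM, no filter, the exact rank-sum test and all 4 groups in 1 fit, against 1; families gave 0 with TMM, no filter and 4 groups in 1 fit, against 2. With 4 groups in 1 fit, KO-WD against WT-WD gave 2 genera against 1, and KO-WD against KO-ND 1 family against 0. In the SI, no filter gave 2 genera and 3 families for KO-WD against WT-ND (0 before), 1 and 1 for KO-WD against KO-ND (0), 4 and 4 for KO-WD against WT-WD (1) and 1 genus for the interaction (0), and 4 groups in 1 fit gave 1 genus and 1 family for KO-WD and 1 family for KO-ND against WT-ND (0). LI against SI gave 2 with DESeq2, against 4, and the contrast of LI with SI in the change between KO-WD and WT-ND gave 1 with limma, against 0.

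Replicate numbers did not pair mice across groups: same-numbered libraries correlated at -0.477 to 0.491, and in 9 of 64 pairs the own number was the most alike. With the replicate block, KO-WD against WT-ND, WT-WD against WT-ND and KO-WD against WT-WD gave 0 genera and 0 families in the LI (rc4-4 adjusted p = 0.173 in the first and 0.0953 in the last, with fitted log2 fold changes of -10.57 and -12.88 against -10.63 and -12.91 without the block), while rc4-4 in KO-ND against WT-ND mice kept its call (adjusted p = 0.0131). Without the mouse as a block, that contrast of LI with SI gave 1 genus.

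Leaving out 1 library gave 1 to 2 genera for KO-WD against WT-ND, 0 to 2 for WT-WD against WT-ND (families 0 to 2) and 0 to 1 genera and families for KO-WD against WT-WD in the SI. It gave 1 to 1 for the other LI comparisons with WT mice and 0 to 0 for all other comparisons within 1 site. Fits across the sites left out 1 mouse with both its libraries. They gave 4 to 4 for LI against SI and 0 to 0 for the contrast of LI with SI in the change between KO-WD and WT-ND.

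Directions reversed only for changes that passed no test. With TMM and DESeq2, Christensenellaceae in WT-WD against WT-ND mice turned to -0.43 and -0.29, and their interaction to 0.50 with DESeq2. *Dehalobacterium* turned to -0.16 (DESeq2) and -0.078 (limma) in KO-ND against WT-ND, to 0.42 (limma) and 0.14 (block) in KO-WD against WT-WD, and to 0.080 (DESeq2) and 0.50 (limma) in the interaction. With limma the interaction of the unnamed Peptococcaceae was 1.33, and Mogibacteriaceae were -0.089 in KO-WD and -0.66 in KO-ND against WT-ND. Leaving out 1 library gave Christensenellaceae -0.57 to 0.90 in WT-WD against WT-ND, -0.32 to 0.56 in KO-WD against KO-ND and -0.78 to 0.68 in the interaction, and *Dehalobacterium* -0.82 to 0.29 in KO-WD against WT-WD.

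Scaling moved the median log2 fold change of all genera by up to -1.19 in the LI (limma, KO-ND against WT-ND). In WT-WD against WT-ND mice Mogibacteriaceae stood 1.34 to 1.54 above that median under the 4 scalings, and rc4-4 1.14 to 1.44. Causes were not tested. For members under 20 counts, depth limits what presence or absence shows.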
